A study of Rattus norvegicus with 46 samples.

Results

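The integrin subunit genes Itgb1, Itga1 and Itga7, the tetraspanin genes Cd9, Cd151, Cd63 and Cd81, and Mfge8 were followed over 46 Affymetrix rat genome oligonucleotide arrays of rat left ventricle. They are 8 of the 4736 genes that the arrays name without ambiguity, and their 12 probe sets were all those annotated to exactly 1 of the 8 symbols, of 8740 probe sets in all. Itga7 had 3 probe sets, Cd9 and Cd81 had 2 each and the others 1. All animals were male Wistar rats, and each array held a pool of RNA from several hearts, so that the p-values below reflect how pools varied rather than animals. Hypertrophy was produced in adults by a clip around the ascending aorta (aortic banding: 2 arrays each at 6, 12 and 16 weeks, 4 at 30 weeks), or by ligation of the left coronary artery with the scar cut away (infarction: 4 arrays each at 3 and 9 weeks). A puncture joining the aorta to the caval vein (shunt: 2 arrays each at 3 and 8 weeks) and 2 weeks of angiotensin II from minipumps or of the thyroxin analogue Ditpa (2 arrays each) made up the rest. Each surgical time point had its own 2 sham-operated arrays, whereas angiotensin II and Ditpa shared the same 2 vehicle arrays. The paper also lists a single vehicle group for both hormones. The labels call these arrays saline infusions and list Ditpa as infused too. The methods describe injections of Ditpa and an acidified pump vehicle for angiotensin II, so which vehicle these control animals received is unsettled. Hearts taken 3 days after birth gave 2 neonatal arrays, which had no controls of their own and were set against all 18 adult control arrays. The age of the adults is not given in the sources used here.

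Integrins are receptors of an alpha and a beta chain that anchor cells to laminin, collagen and fibronectin. In heart muscle the beta-1 chain pairs with alpha-7 as a laminin receptor, and alpha-1 beta-1 is a receptor for collagen and laminin found on fibroblasts, smooth muscle and endothelium as well. Tetraspanins are small proteins with 4 membrane passages that gather integrins, proteases and signalling enzymes into membrane domains. Cd151 binds laminin-binding integrins most directly, Cd9 and Cd81 have a common set of partners at the cell surface, and Cd63 sits mainly in late endosomes, lysosomes and the vesicles that cells release. Mfge8 (lactadherin) is a secreted bridge whose lipid-binding domains hold phosphatidylserine on dying cells or vesicles while an RGD motif binds alpha-v integrins on phagocytes.

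The 4 genes Itgb1, Cd9, Cd151 and Mfge8 had a probe set called higher in hypertrophy on average, and their promoters are shown for that reason. Each line runs 5′ to 3′ from 250 bases before the RefSeq start site to 50 after it, in build GRCr8, and capitals mark GC boxes (GGGCGG, which Sp-family factors bind) and, in Itgb1 only, an MCAT motif (CATTCC), each searched on both strands; overlapping matches run together. The windows are chr19:73602027-73602326 on the plus strand for Itgb1, chr4:159975309-159975608 on the minus strand for Cd9, chr1:205994050-205994349 on the plus strand for Cd151 and chr1:142489382-142489681 on the minus strand for Mfge8.
Itgb1: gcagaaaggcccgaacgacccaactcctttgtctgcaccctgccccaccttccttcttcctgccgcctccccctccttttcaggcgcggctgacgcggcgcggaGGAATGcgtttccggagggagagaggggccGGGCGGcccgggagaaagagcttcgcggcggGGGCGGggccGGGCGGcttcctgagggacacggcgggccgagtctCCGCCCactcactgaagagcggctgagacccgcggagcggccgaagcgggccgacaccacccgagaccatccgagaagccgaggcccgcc
Cd9: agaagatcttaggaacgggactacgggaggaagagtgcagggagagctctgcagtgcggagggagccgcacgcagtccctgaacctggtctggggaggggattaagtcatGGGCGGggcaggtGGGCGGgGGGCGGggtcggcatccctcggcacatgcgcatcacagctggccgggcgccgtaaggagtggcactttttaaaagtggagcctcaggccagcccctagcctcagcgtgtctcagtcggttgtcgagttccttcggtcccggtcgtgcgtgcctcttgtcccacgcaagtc
Cd151: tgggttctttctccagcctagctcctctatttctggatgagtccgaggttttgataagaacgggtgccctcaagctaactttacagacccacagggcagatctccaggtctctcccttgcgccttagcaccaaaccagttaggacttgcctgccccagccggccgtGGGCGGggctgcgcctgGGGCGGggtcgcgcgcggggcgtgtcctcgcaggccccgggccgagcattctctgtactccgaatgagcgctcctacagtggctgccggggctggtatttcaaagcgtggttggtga
Mfge8: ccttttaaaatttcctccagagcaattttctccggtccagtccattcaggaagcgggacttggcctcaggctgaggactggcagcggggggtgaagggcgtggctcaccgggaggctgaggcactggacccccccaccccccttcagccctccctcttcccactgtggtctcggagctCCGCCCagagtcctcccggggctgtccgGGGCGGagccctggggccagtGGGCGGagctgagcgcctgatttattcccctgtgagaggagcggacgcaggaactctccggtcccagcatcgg
The Itgb1 window held 4 GC boxes, those of Cd9 and Mfge8 3 each and that of Cd151 2. Those of Cd63 and Cd81, with 2 each, did not stand apart from these 4 genes, and that of Itga1 held none. A GC box was found in 33.1% of 33469 rat promoters of the same length and an MCAT motif in 14.2%. The 4 windows printed held no AP-1 motif (TGANTCA, in 7.33% of all promoters), no TATAAA (in 14.2%) and no CArG box (in 1.64%). GC content ran from 53.7% in Itga1 to 75% in Cd63, against a median of 51.7%. A motif match is a description of the letters and not a measured binding site. Itga7 had no entry in the promoter table.

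Intensities below are the deposited array values, and differences are log2 (treated minus own controls) ± SE from limma. In the average effect each of the 10 treated groups counts the same, and a probe set was called at a Benjamini-Hochberg adjusted p below 0.05 over all 8740. A gene with several probe sets is represented in counts by the brightest. Because hybridisation differs between probes, no probe set's level is set against another's. Array medians ran from 1002.6 to 1084.4, and the members lay well above the floor of 16 on every array. The brightest values reached only 22581 to 23633 on the 4 angiotensin II and Ditpa arrays, against 24526 to 64884 on the others. The neonatal arrays were among the lowest of these, at 30195 and 24526. Hormone values that quantile normalization or the omission of a vehicle array moved are given together further on. The 14 measured cardiomyocyte markers summed to between 232800 and 572800 on the hypertrophic arrays and 274800 and 557500 on the controls. None of the 14 was below 100 on every array, but neither was any marker of the other cell types. These values therefore do not test the label of left ventricle.

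On average over the hypertrophy groups, 3 of the 8 genes (Itgb1, Cd151 and Mfge8) and 4 of the 12 probe sets (the fourth being the _at set of Cd9) were called higher, and none was called lower. Over the whole array the same rule called 5.21% of all probe sets in either direction and 3.64% of all probe sets higher. Itgb1, Cd9, Cd151 and Mfge8 are all among the commonly regulated genes that the study itself selected on these arrays, so these calls are not independent evidence of their direction. Banding supplied 4 of the 10 groups averaged. None of the 8 genes was called on average when banding was left out, or when the 5 models were weighted equally. The shares of all probe sets called in these settings are not given here, so these counts describe the members alone. The median average effect of the 8 genes was 0.14, against 0.01 over all genes tested, and 7 of the 8 lay above 0 against 53.6% of all probe sets. In such bulk tissue, more cells of a type and more RNA per cell cannot be told apart.

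**Figure D1:**
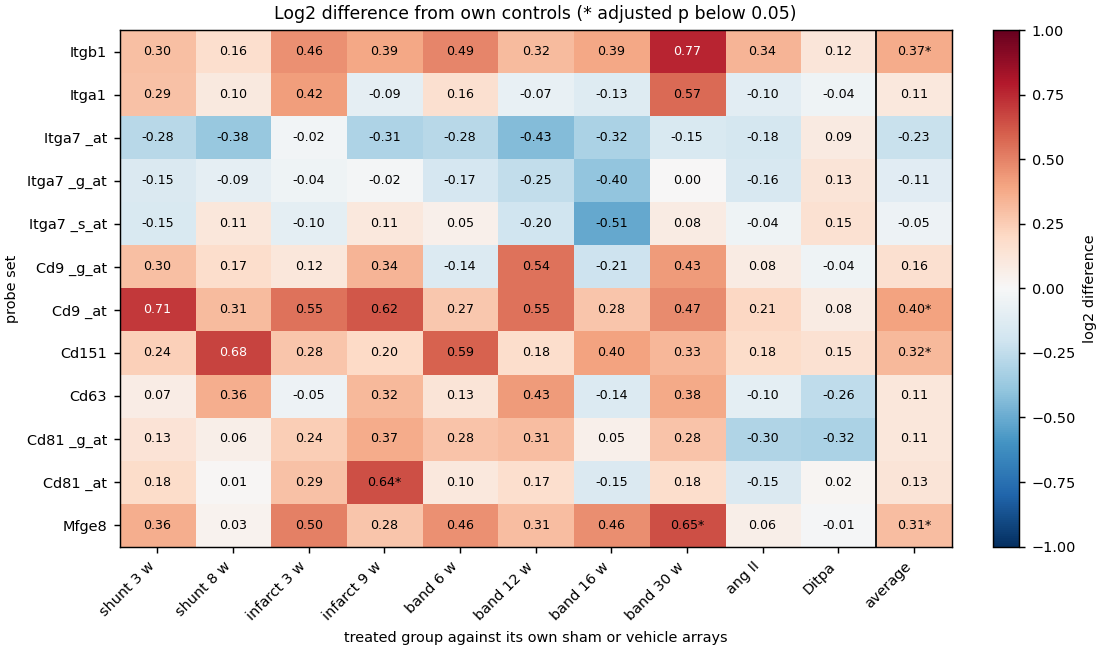
Log2 difference of each of the 12 probe sets (rows) in each treated group against its own sham or vehicle arrays (columns) and on average, with an asterisk for adjusted p below 0.05 by limma. Itgb1, Cd151 and the _at set of Cd9 lie above 0 in all 10 groups (Cd9 _at was at -0.0041 and -0.13 with the hormones without vehicle replicate 1), and single-group calls are limited to Mfge8 after 30 weeks of banding and the _at set of Cd81 at 9 weeks of infarction.

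Itgb1, the beta-1 chain common to most matrix-binding integrins, was higher in 23 of the 26 hypertrophic arrays than in the mean of their own controls. The hypertrophic arrays ran from 3362 through a median of 6634 to 8680, and the controls from 3014 through 5264 to 7080. The ranges overlapped, the lowest hypertrophic value being replicate 1 of banding at 12 weeks and the highest control a vehicle array. Within groups, all treated arrays lay above both of their controls in 7 of 10 groups, the exceptions being banding at 12 weeks, infarction at 9 weeks and Ditpa. How many of all probe sets did so is not given here. The average effect was 0.37 ± 0.0885, a fold of 1.29 (limma adjusted p = 0.00805). By model it was 0.49 ± 0.134 after banding (adjusted p = 0.0254), 0.42 ± 0.169 in infarction (0.289), 0.23 ± 0.196 for the shunt (0.819), 0.34 ± 0.277 for angiotensin II (1.0) and 0.12 ± 0.277 for Ditpa (1.0). The banding arrays ran from 3362 through 6990 to 8305 and the shams from 3014 through 5312 to 5739. The pools of banding at 12 weeks stood far apart, at 3362 and 8305, with shams at 5243 and 3435. Over all probe sets these pools correlated at r = 0.9649 and their shams at 0.9653, the lowest values among pairs of arrays of the same group. At 30 weeks all 4 treated arrays (7514, 6177, 6240 and 7776) exceeded both shams (3014 and 5449), for a difference of 0.77 that did not pass (adjusted p = 0.144).

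The call of Itgb1 in banding was lost without any 1 of 7 arrays, all of that model, at adjusted p up to 0.116. These were sham replicate 4 at 6, 12 and 16 weeks, sham replicate 5 at 30 weeks, banding replicate 1 at 6 weeks and banding replicate 2 at 12 and 16 weeks, with estimates between 0.33 and 0.48. At 30 weeks it was called without sham replicate 6 (1.19, adjusted p = 0.0341) and without either array of banding at 12 weeks (0.77, 0.0391).

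**Figure D2:**
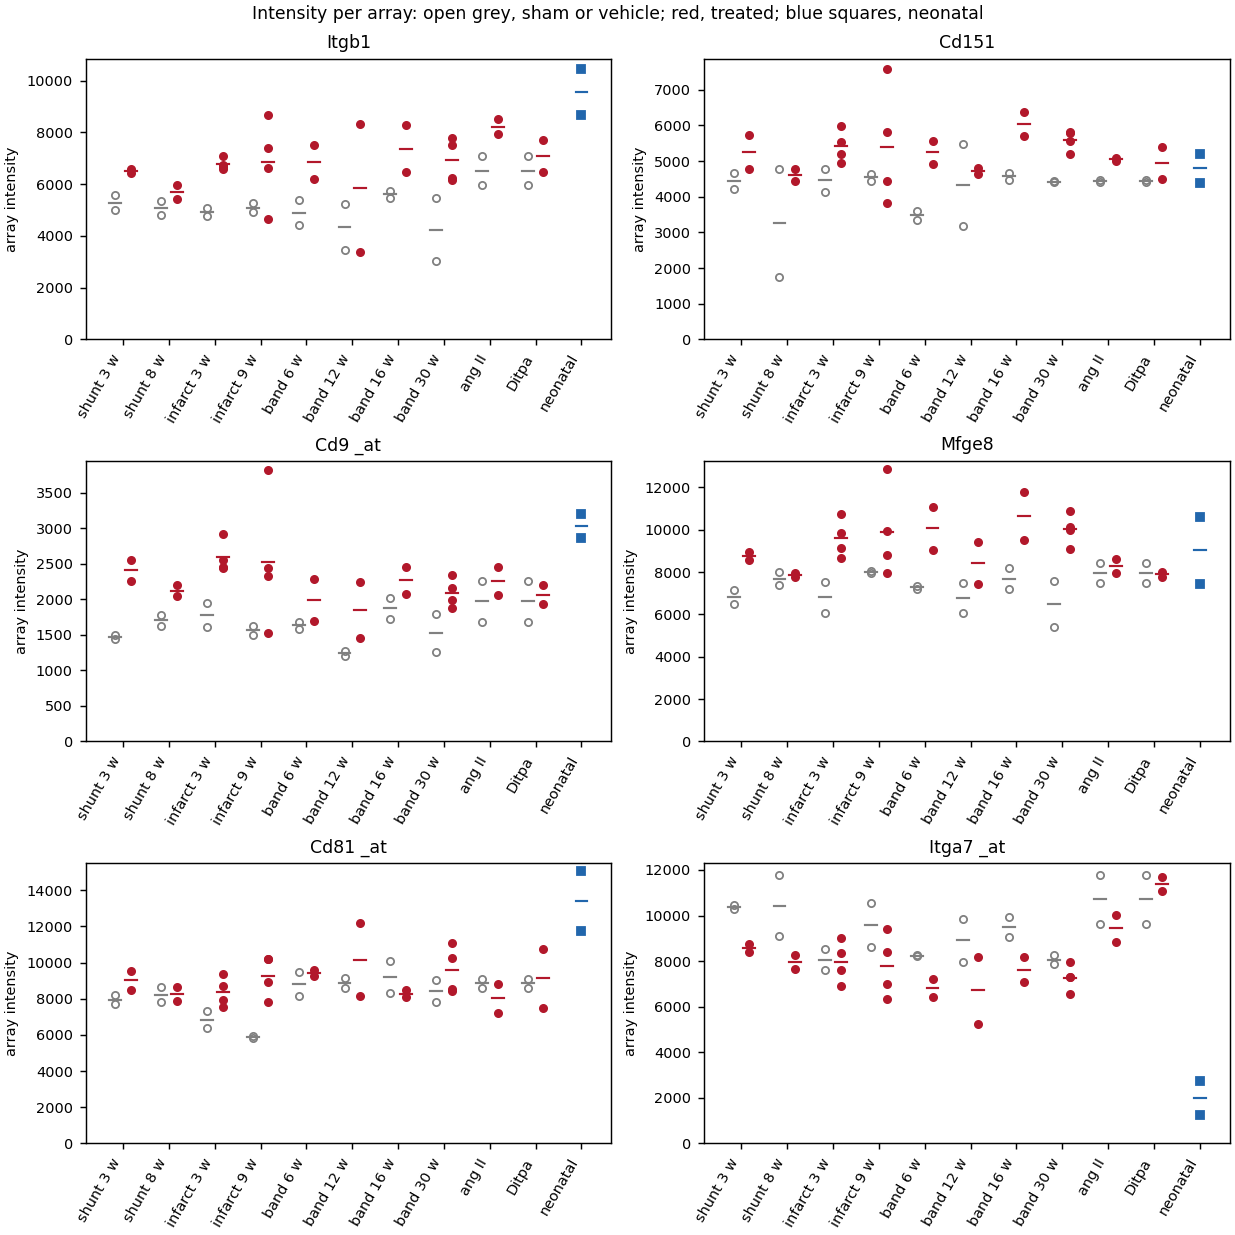
Array intensity (linear axis from 0) of Itgb1, Cd151, Cd9 _at, Mfge8, Cd81 _at and Itga7 _at by group, with open grey circles for the group's own sham or vehicle arrays, red circles for treated arrays, blue squares for neonatal arrays and short lines for means. The vehicle arrays are drawn beside both hormones; neonatal Itga7 lies at 1255 and 2731, below all adult arrays.

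Itga7, the laminin-binding alpha chain of striated muscle, was measured by 3 probe sets that differed in how far they moved. The brightest, _at, ran from 5251 through 8058 to 11681 in hypertrophic arrays and from 7611 through 9092 to 11769 in controls. It lay below the mean of its own controls in 22 of 26 arrays, among them all 10 banding and all 4 shunt arrays, and below both controls in every array of banding at 6 and 16 weeks and of the shunt at 3 and 8 weeks. At 3 weeks of shunt, for example, the treated arrays read 8740 and 8381 and the shams 10466 and 10278. Its average effect was -0.23 ± 0.072, which did not pass (limma adjusted p = 0.064). After quantile normalization the same probe set was called at -0.25 (adjusted p = 0.022), and with array medians subtracted at -0.24 (0.0421). It was also called without the hormone groups (-0.27, adjusted p = 0.0329), with array weights (0.0495) and without any 1 of 6 arrays (adjusted p from 0.0133 to 0.0481). The 6 were sham replicate 4 of the shunt at 8 weeks, infarction replicate 1 at 9 weeks, sham replicate 3 and banding replicate 2 at 12 weeks, and either neonatal array.

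The other sets of Itga7 stood closer to 0. The _g_at set was at -0.11 ± 0.0511 (adjusted p = 0.249), lower in 20 of 26 arrays, and the _s_at set at -0.05 ± 0.0508 (adjusted p = 0.712), lower in 14. Over the 19 adult group means the _at set correlated with _g_at at r = 0.477 and with _s_at at r = -0.0446, while _g_at and _s_at correlated at r = 0.624. Itga7 transcripts are alternatively spliced, and which forms each set detects was not examined. By model the _at set was at -0.30 ± 0.109 for banding (adjusted p = 0.122), -0.17 ± 0.138 for infarction (0.754) and -0.33 ± 0.159 for the shunt (0.575). Its banding value was called when replicate 2 of 12 weeks was left out (-0.38, adjusted p = 0.033) or either neonatal array was (0.0375). With the hormones it was at -0.18 ± 0.225 for angiotensin II and 0.09 ± 0.225 for Ditpa.

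Itga1, the collagen-binding alpha-1 chain, showed no call in any comparison. Its hypertrophic arrays ran from 1599 through 2396 to 3144 and its controls from 1393 through 2259 to 2820, and 16 of 26 arrays lay above their own controls. The average effect was 0.11 ± 0.0822 (95% interval -0.06 to 0.28, adjusted p = 0.588), or 0.06 (0.77) without sham replicate 3 of banding at 6 weeks. At 30 weeks of banding the 4 treated arrays (2136, 1998, 2093 and 2356) all exceeded the shams (1489 and 1400), at a difference of 0.57 with adjusted p = 0.324. At 3 weeks of infarction the arrays read 3144, 2466, 2607 and 2578 against shams of 1770 and 2278, a difference of 0.42 (adjusted p = 1.0) that was 0.24 without sham replicate 1.

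Cd9, the tetraspanin best known from platelets and from sperm-egg fusion, gave different answers by probe set. Its _at set ran from 1452 through 2253 to 3814 in hypertrophic arrays and from 1207 through 1628 to 2261 in controls, and was higher in 24 of 26 arrays. All 10 banding and all 4 shunt arrays lay above both of their own shams, as at 3 weeks of shunt, where treated arrays read 2553 and 2259 and shams 1441 and 1501. The average effect was 0.40 ± 0.0777, a fold of 1.32 (limma adjusted p = 0.000956). It was 0.58 ± 0.149 for infarction (adjusted p = 0.0277), 0.51 ± 0.172 for the shunt (0.409), 0.39 ± 0.117 for banding (0.0446), 0.21 ± 0.243 for angiotensin II (1.0) and 0.08 ± 0.243 for Ditpa (1.0). The brighter _g_at set, designed from the same sequence, averaged 0.16 ± 0.0765 (adjusted p = 0.304), with 18 of 26 arrays higher. At 6 and 16 weeks of banding the pools of _g_at lay below both shams (1917 and 1752 against 2097 and 1938, then 2045 and 1819 against 2315 and 2145) while those of _at lay above. The difference between the sets was not tested. As the mean of its probe sets Cd9 was called on average at 0.28 (adjusted p = 0.0128).

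The banding call of Cd9 _at was lost without any 1 of 26 of the 46 arrays, at adjusted p from 0.0502 to 0.161 and estimates from 0.31 to 0.40. It was also lost after quantile normalization (adjusted p = 0.0523). The infarction call was lost without any 1 of 5 arrays, namely infarction replicate 3 at 3 weeks (adjusted p = 0.0599), sham replicate 2 at 3 weeks (0.257), infarction replicate 1 at 9 weeks (0.0524) and sham replicates 5 (0.163) and 6 (0.0713) at 9 weeks. At 9 weeks of infarction alone the _at set was called without replicate 4 (0.84, adjusted p = 0.00705).

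**Figure D3:**
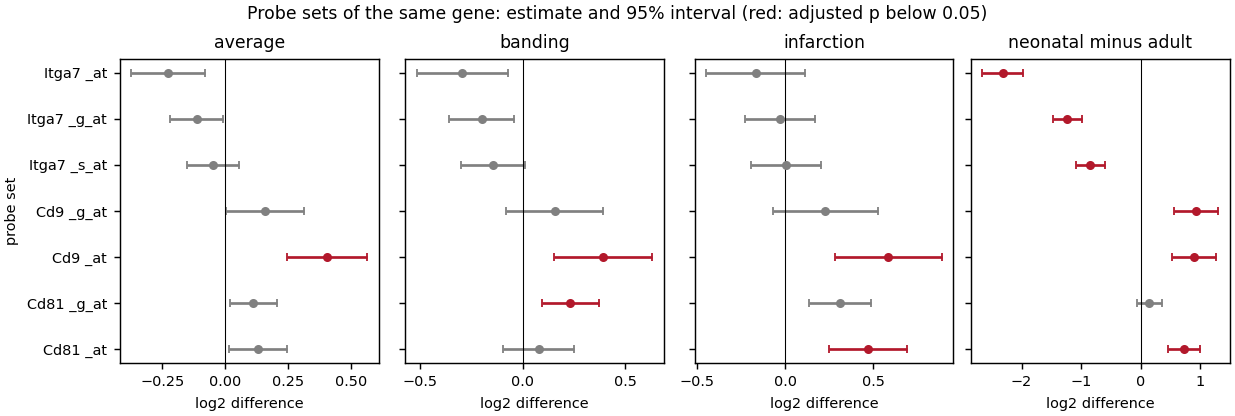
Log2 difference with its 95% interval for each probe set of Itga7, Cd9 and Cd81 on average, after banding, after infarction and in neonatal against adult control arrays, red where adjusted p was below 0.05 by limma. Each panel has its own horizontal scale; the _at and _g_at sets of Cd9 lie at 0.40 and 0.16 on average and at 0.90 and 0.93 in neonatal hearts, and those of Cd81 at 0.73 and 0.15 in neonatal hearts.

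Cd151, the tetraspanin partner of laminin-binding integrins, was higher in 24 of 26 arrays. Hypertrophic arrays ran from 3823 through 5188 to 7566 and controls from 1740 through 4443 to 5475, with the treated arrays above both controls in 7 of 10 groups. The average effect was 0.32 ± 0.0873, a fold of 1.25 (limma adjusted p = 0.022). It lay at 0.38 ± 0.132 for banding, 0.24 ± 0.167 for infarction, 0.46 ± 0.193 for the shunt, 0.18 ± 0.273 for angiotensin II and 0.15 ± 0.273 for Ditpa, none of which passed (adjusted p = 0.099, 0.683, 0.494, 1.0 and 1.0). The shunt value at 8 weeks rested on the lowest of all control arrays. Treated arrays read 4774 and 4453 and shams 4784 and 1740, and the difference of 0.68 became -0.05 without sham replicate 4, as the value over both shunt times became 0.09 (adjusted p = 0.987). Without sham replicate 3 it became 1.41 (adjusted p = 0.00309), and the shunt value 0.82 (0.0108). The average call was lost without vehicle replicate 1 (adjusted p = 0.0686). In banding Cd151 was called without sham replicate 4 at 12 weeks (0.47, adjusted p = 0.024) and without either sham of the shunt at 8 weeks (0.38, 0.0192).

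Cd63 and the _g_at set of Cd81 lay below both vehicle arrays on all 4 angiotensin II and Ditpa arrays, though without passing the test. Cd63, the endosomal and vesicle tetraspanin, averaged 0.11 ± 0.0573 (adjusted p = 0.331), with 17 of 26 arrays higher. After 30 weeks of banding its arrays read 14357, 14935, 13333 and 13231, all above shams of 10563 and 10852, a difference of 0.38 that did not pass (adjusted p = 0.346). With Ditpa the arrays read 9387 and 10723 against vehicle arrays of 11885 and 12101, a difference of -0.26 ± 0.179 (adjusted p = 1.0) that was -0.15 after quantile normalization. At 9 weeks of infarction replicate 1 read 16872 and the other arrays 10132, 10289 and 7862, and the difference of 0.32 was 0.11 without that replicate. Without replicate 4 it was called (0.48, adjusted p = 0.0424), and the banding value was called without infarction replicate 1 at 9 weeks (0.20, 0.0411).

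Cd81, known as part of the B-cell coreceptor and expressed by most cell types, was called higher after infarction by 1 of its 2 probe sets. The 8 infarction arrays of the _at set ran from 7520 through 8817 to 10181 and the 4 shams read 7321, 6360, 5854 and 5965, so that each treated array lay above each sham, as it did for _g_at. The difference was 0.47 ± 0.108, a fold of 1.38 (limma adjusted p = 0.0133), and 0.64 ± 0.153 at 9 weeks (0.0245). The _g_at set was at 0.31 ± 0.0865 (adjusted p = 0.055), with its arrays from 8842 through 10332 to 13276 and shams of 8162, 8520, 8831 and 8210. In banding the other set passed, with _g_at at 0.23 ± 0.0684 (adjusted p = 0.0418), higher in 10 of 10 arrays, and _at was at 0.08 ± 0.0855 (0.739). With angiotensin II and Ditpa the _g_at set was at -0.30 ± 0.141 and -0.32 ± 0.141 against the same 2 vehicle arrays (adjusted p = 1.0 for each), or -0.29 and -0.22 after quantile normalization. On those arrays it read 10128 and 9018, then 9871 and 9093, all below vehicle at 12384 and 11224. The _at set overlapped there, with Ditpa at 10765 and 7489 against 9101 and 8588. The average effects were 0.11 ± 0.0452 for _g_at and 0.13 ± 0.0565 for _at (adjusted p = 0.184 and 0.227), and without the hormone groups _g_at was called at 0.22 (0.00486).

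The infarction call of Cd81 _at was lost without sham replicate 2 at 3 weeks (0.42, adjusted p = 0.149) or sham replicates 5 (0.46, 0.0819) or 6 (0.47, 0.0534) at 9 weeks. The call at 9 weeks alone was lost without sham replicates 5 (0.278) or 6 (0.134) or infarction replicates 1 (0.0879) or 3 (0.0637), and after quantile normalization (0.47, adjusted p = 0.073). The _g_at set was called at 9 weeks without infarction replicate 4 (0.48, adjusted p = 0.012), and over both times without that replicate (0.36, 0.00602) or any 1 of 6 banding-series arrays (0.31 in each, up to 0.0486). Its banding call was lost without any 1 of 11 arrays, all of the banding series, at adjusted p from 0.0501 to 0.133, and after quantile normalization (0.0577).

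Mfge8, the secreted bridge to dying cells, was higher in 23 of 26 arrays, including all 10 of banding and all 4 of the shunt. Hypertrophic arrays ran from 7430 through 9063 to 12866 and controls from 5387 through 7424 to 8416. The difference was 0.47 ± 0.0889 for banding (limma adjusted p = 0.000858), 0.39 ± 0.112 for infarction (0.064), 0.20 ± 0.13 for the shunt (0.728), 0.06 ± 0.184 for angiotensin II (1.0) and -0.01 ± 0.184 for Ditpa (1.0). The banding fold was 1.38. After 30 weeks of banding arrays of 10891, 9980, 9076 and 10132 stood above shams of 5387 and 7590, at 0.65 ± 0.159 (adjusted p = 0.0327). That was the only call of a brightest probe set in any of the 10 single groups. Of all probe sets the rule called 0.652%, 0.355%, 0.709% and 1.12% at the 4 banding times, 0.206% and 1.92% at the infarction times, 0% and 0.0458% at the shunt times and 0% for each hormone. It was lost without sham replicate 5 (0.40, adjusted p = 0.968), without banding replicate 1 (0.60, 0.105), 2 (0.65, 0.0769) or 4 (0.64, 0.0576) of that time. The banding call over all times held without each array in turn (largest move to 0.41, adjusted p = 0.00609, without that same sham). At 8 weeks of shunt the arrays (7972 and 7778) lay between the shams (7384 and 8000), and with the hormones they overlapped the vehicle range of 7491 to 8416. The infarction value was called without replicate 4 at 9 weeks (0.44, adjusted p = 0.0183) and was 0.31 without sham replicate 2 at 3 weeks.

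Set side by side by model, banding called 3 of the 8 genes (Itgb1, Cd81 and Mfge8) and 4 of the 12 probe sets, where the rule called 5.26% of all probe sets. Infarction called 0 genes by the brightest set and 2 of the 12 probe sets (Cd9 _at and Cd81 _at), against 1.96% of all. At an unadjusted p below 0.05, 3 of the 8 genes passed for infarction, as did 11.1% of all probe sets. For the shunt, 0 of 12 probe sets were called where the rule called 0.0458% of all, and 3 had an unadjusted p below 0.05, as did 8.6% of all. For angiotensin II and Ditpa no probe set of the array was called, and 1 of the 12 had an unadjusted p below 0.05 with each, the _g_at set of Cd81, where 3.49% and 3.2% of all probe sets did. The moderated F test for a difference between the 5 models called 24 probe sets of the array (0.275%) and 0 of the 12, of which Cd81 _g_at came nearest (F = 4.79, unadjusted p = 0.00398, adjusted p = 0.316). A difference of the members between models was therefore not shown, for Mfge8 (F = 1.89, adjusted p = 1.0) or Itgb1 (F = 0.57, 1.0) included.

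The hormone values rest on 2 vehicle arrays, and 11 of the 24 turned sign when 1 array was left out. Without vehicle replicate 1, Cd9 _at was at -0.0041 with angiotensin II and -0.13 with Ditpa, and Mfge8 at -0.02 and -0.09. Without vehicle replicate 2, Itga7 _at was at -0.32 and -0.05. After quantile normalization Itga7 _at was at -0.18 with angiotensin II and 0.26 with Ditpa. With angiotensin II the same setting gave 0.12 for Cd151, 0.02 for Mfge8 and -0.035 for Cd63. On the same 4 arrays the summed cardiomyocyte markers lay below vehicle by 0.563 to 0.592 log2 and the fibroblast markers by 0.101 to 0.3. The brightest values were 22581 to 23633 on these arrays, against 39898 and 33408 on the vehicle arrays. The part of this lower bright end in the marker sums and in the members' values was not tested. The part of these markers in the lower values of Cd63 and Cd81 _g_at was not tested.

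Time made no difference that passed. Over the 4 banding times no probe set of the array was called, and among the members Itga7 _s_at came nearest (F = 3.22, unadjusted p = 0.0361, adjusted p = 0.694), at -0.51 after 16 weeks and 0.08 after 30. Between 9 and 3 weeks of infarction, and between 8 and 3 weeks of shunt, 0 of 12 were called and 0 had an unadjusted p below 0.05, where 5.82% and 4.6% of all probe sets did. The widest of these differences was that of Itga1 after infarction, at -0.51 (adjusted p = 0.93).

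The methods name a rank sum test on log fold changes without saying what these were set against. Here both a rank sum test and a signed rank test were run. With 26 hypertrophic log2 ratios against 18 control ratios, by an exact rank sum test, Itgb1 (p = 4.64e-06) and Cd9 _at (p = 1.01e-07) passed the Bonferroni threshold of 5.72e-06, as did 1.34% of all probe sets. Mfge8 (p = 1.47e-05) and Cd151 (p = 3.73e-05) did not pass this exact test. An exact signed rank test, in which the 26 ratios were set against 0, passed these 4 genes and 2.05% of the array. Control ratios taken against the mean of their own pair are narrow by construction, and the study chose these genes on the same arrays.

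The 4 pools of infarction at 9 weeks stood in much the same order for most members. By brightest set replicate 1 was the highest for each of the 8 genes, and replicate 4 the lowest for all but Cd151 and Itga7. Itgb1 read 8680, 6617, 7411 and 4636 in replicates 1 to 4, against 6650, 6586, 6722 and 7101 at 3 weeks. Mfge8 read 12866, 9930, 8811 and 7934, with shams at 7946 and 8064. The summed fibroblast markers of the same pools were above their shams by 0.71, 0.61, 0.20 and 0.25 log2, the macrophage and leukocyte markers by 1.12, 0.21, 0.07 and -0.10, and the cardiomyocyte markers by 0.01, -0.06, 0.20 and 0.18. The part of these markers in the members' values was not tested.

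**Figure D4:**
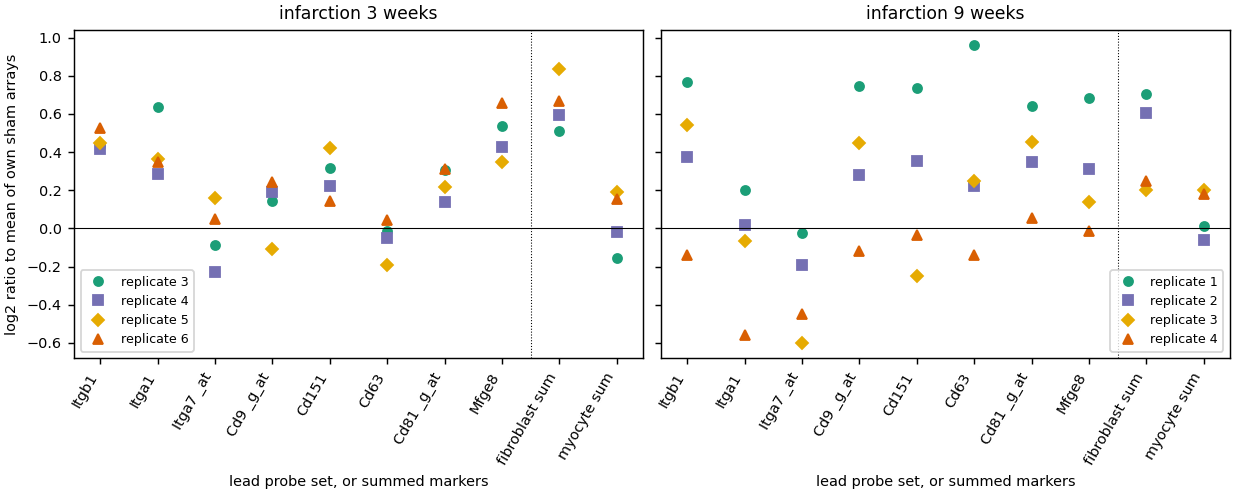
Log2 ratio of each infarction array to the mean of its own 2 shams for the brightest probe set of each gene, and for summed fibroblast and cardiomyocyte markers right of the dotted line, at 3 weeks (left) and 9 weeks (right). At 9 weeks replicate 1 lies highest for 8 of the 8 genes and replicate 4 lies below 0 for all of them but Cd81, while the 3-week pools lie close together for Itgb1.

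Markers of other cells were also called in the average effect, for which the rule called 5.21% of all probe sets. Of 11 measured fibroblast markers 6 were called higher and 0 lower, with a median of 0.37, and their summed intensity ran from 43860 to 121200 in hypertrophic and from 38190 to 69510 in control arrays. Of 8 macrophage and leukocyte markers 2 (Lyz2 and C1qb) were higher, with sums of 19050 to 48170 against 17030 to 28060. None of 5 endothelial or 3 platelet markers was called, and none of the 14 cardiomyocyte markers (median -0.11), 1 of 6 smooth muscle markers was higher (Myl9) and 1 of 4 Schwann and neural markers (Pmp22). No marker of these lists was below 100 on every array. The part of these cells in the members' values was not tested.

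In neonatal hearts the alpha-7 and beta-1 integrin chains went opposite ways. Of the 8 genes 3 were called, Itga7 lower and Itgb1 and Cd9 higher, and of the 12 probe sets 7, in a comparison in which 32.6% of all probe sets were called, 15.5% higher and 17% lower. The neonatal arrays of Itga7 _at read 2731 and 1255 against 7611 through 9092 to 11769 in the adult controls, a difference of -2.32 ± 0.168 or 4.99-fold lower (limma adjusted p = 2.17e-12). Both other sets agreed in direction, at -1.23 ± 0.119 for _g_at (1.28e-09) and -0.85 ± 0.118 for _s_at (1.29e-06). No neonatal array of any Itga7 set reached the lowest adult control. Itgb1 read 10460 and 8678, above all controls, at 0.92 ± 0.206 or 1.90-fold (adjusted p = 0.000779).

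Cd9 was higher in neonatal hearts by both sets, at 0.93 ± 0.178 for _g_at (4162 and 3927 against controls up to 3334, adjusted p = 0.000128) and 0.90 ± 0.181 for _at (3199 and 2864 against controls up to 2261, 0.000228). Cd81 was split: the _at set read 15032 and 11767 against controls of 5854 to 10063, at 0.73 ± 0.132 (adjusted p = 6.31e-05), whereas _g_at read 11882 and 10194, within the control range of 8162 to 12384, at 0.15 ± 0.105 (0.294), or -0.01 after quantile normalization. As the mean of its sets Cd81 was called at 0.44 (adjusted p = 0.00159). Cd151 (0.22 ± 0.203), Cd63 (0.17 ± 0.133), Itga1 (-0.03 ± 0.191) and Mfge8 (0.30 ± 0.137) did not pass, with adjusted p of 0.448, 0.366, 0.915 and 0.0953. After quantile normalization these were 0.08, 0.0025, -0.07 and 0.11 (adjusted p = 0.816, 0.99, 0.821 and 0.513). The neonatal pools of Mfge8 read 10600 and 7455, and without replicate 2 it was called (0.55, adjusted p = 0.0283). The Itgb1 call was lost without replicate 1 (0.79, adjusted p = 0.0546). Against the 2 vehicle arrays alone, only Itga7 of the 8 genes stayed called, with Itgb1 at adjusted p = 0.196. The share of all probe sets called in that setting is not given here.

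**Figure D5:**
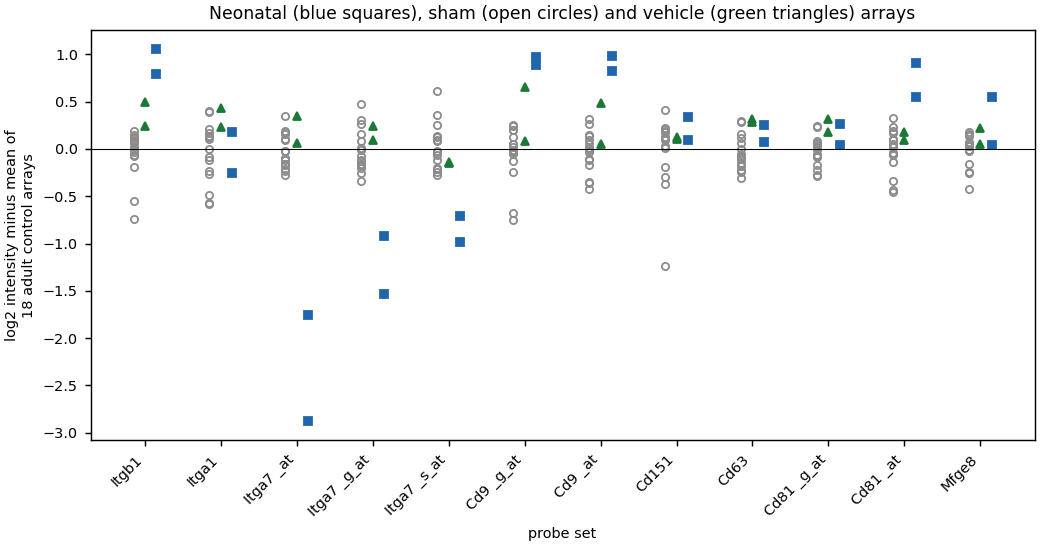
Log2 intensity of each neonatal array (blue squares), sham array (open circles) and vehicle array (green triangles) minus the mean of the 18 adult control arrays, per probe set. All 3 sets of Itga7 lie far below the controls, Itgb1, both sets of Cd9 and the _at set of Cd81 above them, and the other sets overlap them, with 1 Mfge8 array above all controls.

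Neonatal hearts also differed in cell markers, in a comparison that called 32.6% of all probe sets (15.5% higher, 17% lower). Of 14 cardiomyocyte markers 12 were lower and 1 higher (Casq2), with a median of -0.64, and of 11 fibroblast markers 6 were higher and 1 lower (Dcn), with a median of 0.80. The cardiomyocyte sums were 299400 and 246600 on neonatal arrays whose brightest values were 30195 and 24526. An adult array with a brightest value of 27718, sham replicate 3 of banding at 6 weeks, summed to 274800. The part of this lower bright end in the cardiomyocyte values was not tested. Both genes of the atrial myocyte list were higher, Myl4 by 3.35 and Myl7 by 1.12, which by itself does not show atrial tissue in these pools. Of 8 macrophage and leukocyte markers 3 were lower. Of 6 smooth muscle markers 2 were higher and 1 lower (Myh11, -0.30), 1 of 5 endothelial markers was higher (Pecam1, 0.54) and 1 of 4 Schwann and neural markers lower (Sox10, -0.32). The part of these cells in the members' values was not tested.

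Among the levels of the 20 groups, Itga7 _at was lowest in neonatal hearts at a mean log2 of 10.85, followed by banding at 12 weeks at 12.68, a gap of 1.82 against a spread within groups (pooled SD) of 0.235. The remaining 18 gaps between neighbours in that order were each smaller than this SD, up to Ditpa at 13.47. Itgb1 was lowest in the 30-week sham arrays (11.98) and highest in neonatal hearts (13.22), and none of its 19 gaps exceeded its SD of 0.294. Nor did any gap of Mfge8, which ran from 12.64 in the 30-week shams to 13.37 after 16 weeks of banding with an SD of 0.187. Cd9 _g_at had 1 gap over its SD of 0.251, between neonatal hearts (11.98) and the next group.

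The ligands and partners of these proteins were followed through lists of related genes, each gene by its brightest probe set. Over all probe sets the rule called 5.21% on average (3.64% higher) and 32.6% in neonatal hearts (15.5% higher, 17% lower). Of 18 measured matrix ligands of integrins 7 were called higher on average and 0 lower, with a median of 0.10 against 0.01 for all genes. Led by periostin (Postn, 1.42) and osteopontin (Spp1, 1.14), they included thrombospondin-4 (Thbs4, 0.64) and fibronectin (Fn1, 0.55). In neonatal hearts 10 of the 18 were higher and 3 lower (median 0.45 against -0.07 for all genes), with Postn at 5.02, Fn1 at 2.19, Col1a2 at 1.94 and Col3a1 at 1.56. Of 8 other integrin subunits 1 (Itgb7, a leukocyte chain, 0.15 ± 0.0442, adjusted p = 0.0428) was higher on average and none was called in neonatal hearts, and of 8 other tetraspanins none was called on average, while in neonatal hearts 1 was higher (Tspan3, 0.55) and 1 lower (Cd37, -0.41).

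Of 13 integrin adaptors and kinases 1 was higher on average (Rhoa, a small GTPase of the actin skeleton, 0.33 ± 0.099, adjusted p = 0.0465) and 1 lower (Fhl2, a LIM protein of heart muscle that binds integrin tails, -0.23 ± 0.0478, 0.00271). In neonatal hearts 5 were higher, led by Csrp1 (1.42) and Rhoa (1.32), and Fhl2 was lower at -0.86 ± 0.111 (3.52e-07). Of 20 tetraspanin partners and protein kinase C genes 1 was higher on average (the metalloproteinase inhibitor Timp1, 0.35 ± 0.0769, adjusted p = 0.00347), and 4 were higher and 1 lower (Prkce, -0.31) in neonatal hearts, led by the membrane protease Mmp14 at 1.16. Of 12 genes of apoptotic cell clearance 2 were higher on average, the phospholipid-binding annexins Anxa5 (0.39 ± 0.0661, 0.000233) and Anxa1 (0.29 ± 0.073, 0.0115), and in neonatal hearts 4, with Anxa5 at 1.10. Neither of the 2 measured genes of the dystroglycan and dystrophin complex was called in these comparisons. The counts of these lists stand beside shares over all probe sets of 5.21% on average and 32.6% in neonatal hearts (15.5% higher, 17% lower).

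The genes whose group means ran most like those of each member over the 19 adult groups are given as a description, since these means share treatments and arrays. For Mfge8 they were Nppb (r = 0.87), Timp1 (0.87) and Nppa (0.861), of which Nppa and Nppb encode natriuretic peptides. For Itgb1 they were the lysozyme gene Lyz2 (0.875), Btg1 (0.875) and the cathepsin gene Ctsl (0.843). Cd63 followed Prdx2 (0.91), Atp6v1f (0.883) and Rpl19 (0.871), and Cd81 followed Lgals4 (0.85), Tln1 (0.845) and Hspb6 (0.829). The closest were Nfkbia for Cd9 (0.877), Psma7 for Itga7 (0.865), Hsd17b2 for Cd151 (0.762) and Wdfy3 for Itga1 (0.736). Among the members themselves Itgb1 ran with Cd9 _at at r = 0.844 and with Mfge8 at 0.782, Cd9 _at with Mfge8 at 0.766, and Itgb1 with Itga7 _at at -0.024. The brighter _g_at set of Cd9 ran with Itgb1 at 0.6 and with Mfge8 at only 0.242.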

How the data were processed

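RNA pools were hybridised by the authors to Affymetrix rat genome arrays, and values were normalised in dChip by invariant rank fitting, with expression modelled from perfect-match probes only. The deposited values are intensities on a linear scale, 8740 probe sets on 46 arrays, of which 7006 carry 1 gene symbol, 308 several and 1426 none. Here intensities were raised to at least 16 (122 values lay below), put on the log2 scale and fitted with limma 3.58.1 in R 4.3.3 as 20 group means, tested by moderated t or F with Benjamini-Hochberg adjustment over all probe sets, two-sided, and called below 0.05. The fit was tested on simulated data. Sensitivity to floor, scaling, filter, array weights, weighting of models, rank tests and omission of each array was examined. The number of arrays limits the precision. Members and gene lists were chosen with earlier results of these data known. Named genes are all members, at most 4 called genes of largest effect per list, all called or counted markers where 5 or fewer, and the genes most like each member. Promoter sequences are from RefSeq (GRCr8), and 7 of 8 members matched.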

Additional observations from a re-analysis of the deposited data

Results flagged for a closer look

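Within groups of 4 arrays, Dixon's test was run on log2 values in 36 cases, of which chance flags about 1 in 20. It divides the gap between the highest or lowest array and its nearest neighbour by the range of all 4. A single array stood apart: replicate 4 of banding at 30 weeks for Itga7 _s_at, at an intensity of 4378 against 2926, 3082 and 3001 in the other arrays, a gap of 0.871 of the range (critical value 0.829). Without it the difference of Itga7 _s_at from sham at that time went from 0.08 to -0.06, and neither value passed.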

How the results depend on the processing

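The count of member genes called on average, 3 as reported, was 0 with the 5 models weighted equally, 5 without the hormone groups, 0 without banding, 1 without infarction and 1 by the rank sum test. It lay between 2 and 4 when each array was left out in turn. With equal weights Itgb1, Cd151, Mfge8 and Cd9 _at had adjusted p of 0.209, 0.306, 0.183 and 0.073. For banding at 30 weeks the count of 1 was 2 with array weights, 0 with only the arrays compared and 0 to 2 with 1 array left out. Array weights moved the count from 0 to 1 for infarction at 3 weeks, for infarction at 9 weeks and for the difference between models, and from 0 to 3 for infarction. Averaging a gene's probe sets moved it from 0 to 1 for infarction at 9 weeks and for infarction. With 1 array left out it ran from 0 to 2 for infarction at 9 weeks and for infarction, from 0 to 1 for the shunt at 8 weeks and for the shunt, from 1 to 4 for banding (3 as reported), and from 2 to 4 for neonatal hearts. The neonatal count of 3 was 1 against the 2 vehicle arrays. All these counts stand without the shares of all probe sets called in the same settings, and do not set the members apart from other genes.

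Among average and neonatal values, signs turned for some that did not pass: Itga7 _s_at on average without banding (0.0136), neonatal Itga1 against the 16 sham arrays (0.00748) or with an array left out (-0.25 to 0.18), neonatal Cd63 against vehicle (-0.14), and neonatal Cd81 _g_at after quantile normalization (-0.00661) or against vehicle (-0.10). With 1 array left out, the sign of 19 of the 96 values in single surgical groups and of 11 of the 24 in the hormone groups turned, none of them called. The cause of these changes was not tested. Shared replicate numbers of vehicle, angiotensin II and Ditpa do not pair the pools (correlations of deviations -0.0433, -0.0638 and -0.0834), and with the replicate block the counts stayed at 3, 0 and 0. Over the whole array quantile normalization moved the share of average calls that were higher from 69.9% to 54.4%.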
